A study of Homo sapiens with 24 samples.

Results

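JUN, ATF3, IER5, CYR61 and MCL1 are 5 genes of chromosome 1 that many cells switch on early after stress, and they were described here in HEK293 cells, an established human embryonic kidney line, with and without hydrogen peroxide. They were chosen by their function and their place on chromosome 1, and each has exactly 1 row among the 11579 transcripts of the deposited table. The 24 samples form 8 groups of 3, made of untransfected cells and of cells transiently transfected with pCMV-flag (empty vector), with pCMV-EVI1-WT-flag (EVI1-WT) or with the mutant plasmid pCMV-EVI1-AQA-flag (EVI1-AQA), each either untreated or kept in 150 μM H2O2 for 8 h. EVI1 is a transcriptional regulator driven here from the CMV promoter, and in EVI1-AQA both serines of a carboxy-terminal SQS motif are replaced by alanine. The growth protocol of the labels also names luciferase reporter plasmids, without saying whether the dishes used for RNA received them. The replicate number equals the batch number of the labels, so that each of 3 batches holds 1 sample of every group. RNA came from whole dishes, in which cells that took up the plasmid and cells that did not cannot be told apart, nor can a change in the number of expressing cells from a change of RNA per cell. Nothing in the labels says whether the replicates are separate cultures, and the p-values measure only the spread between these samples.

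Immediate early genes are transcribed within minutes of a stimulus from factors already present in the cell, without a need for new protein. JUN is a leucine zipper protein of the AP-1 transcription factor, and ATF3 is a stress-induced partner and antagonist of the same family. IER5 encodes a nuclear protein that binds the heat shock factor HSF1 and is itself induced by radiation and heat. CYR61, now also called CCN1, encodes a secreted matrix protein that signals through integrins, and MCL1 encodes a short-lived anti-apoptotic protein of the BCL2 family. Transcripts of this class are often back near their resting level within hours, and the only time point here is 8 h.

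The values are log2 expression values whose mean is 0 for every transcript within every batch, so they show which sample of a batch was higher or lower but no absolute level. Markers of the cell line can therefore not be checked for presence, and read depth is unknown. The 5 genes lie where the row labels look reliable. On chromosome 1, 50.7% of the protein-coding genes and 2.39% of the other genes of the GENCODE v44 annotation carry a row, whereas on chromosomes 2 to 22 the shares are 19.3% and 16.4%. The row labelled CACNB3, on another chromosome, is at 2.62 or above in all untreated EVI1-WT and EVI1-AQA samples and at -1.64 or below in all untreated samples without EVI1. With H2O2, 3 libraries go against their group in that row, the library labelled empty vector replicate 2 with a value of 4.36, the library labelled EVI1-WT replicate 2 with -4.38 and the library labelled EVI1-AQA replicate 1 with -2.60. They stayed in the groups of their labels, and results that turn on them are given with and without them.

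On GRCh38, JUN (ENSG00000177606) lies on the minus strand of chromosome 1 from 58776845 to 58784048, and MCL1 (ENSG00000143384) on the same strand from 150560895 to 150579738. The other three lie on the plus strand, CYR61 (ENSG00000142871) from 85580761 to 85584589, IER5 (ENSG00000162783) from 181088700 to 181092900 and ATF3 (ENSG00000162772) from 212565334 to 212620777. The RefSeq promoter windows of GRCh38.p14 matched JUN, IER5 and ATF3, and CYR61 and MCL1 were not matched. The bases before the annotated genes are printed here as a description, and a link to the H2O2 results was not tested. For ATF3 they lie before the upstream RefSeq start, and which start these cells use was not tested. Capitals mark matches, on either strand, to the 8-letter site TGACATCA, known from the JUN promoter as a site of AP-1 and ATF proteins, or to the heat shock element core GAANNTTC.
JUN, chr1:58784049-58784297, minus strand: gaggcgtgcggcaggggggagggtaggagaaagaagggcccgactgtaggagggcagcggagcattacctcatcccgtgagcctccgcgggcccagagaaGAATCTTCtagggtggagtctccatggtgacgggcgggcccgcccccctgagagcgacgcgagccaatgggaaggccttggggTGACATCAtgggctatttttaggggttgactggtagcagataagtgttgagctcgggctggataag
ATF3, chr1:212565157-212565333, plus strand: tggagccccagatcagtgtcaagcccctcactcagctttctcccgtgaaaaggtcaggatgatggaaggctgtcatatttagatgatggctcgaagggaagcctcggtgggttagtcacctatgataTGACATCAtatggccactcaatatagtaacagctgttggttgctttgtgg
IER5, chr1:181088450-181088699, plus strand: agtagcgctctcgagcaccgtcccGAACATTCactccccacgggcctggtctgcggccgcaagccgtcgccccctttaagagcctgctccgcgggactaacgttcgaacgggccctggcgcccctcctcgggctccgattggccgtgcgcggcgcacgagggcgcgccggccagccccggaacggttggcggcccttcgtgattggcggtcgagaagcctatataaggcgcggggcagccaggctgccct

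The site TGACATCA begins 67 bases before the RefSeq start of JUN and 123 bases before the first of 2 RefSeq starts of ATF3. It occurs in 2.37% of 35116 windows of 250 bases before a start. GAANNTTC begins 150 bases before the start of JUN and 226 bases before that of IER5, and occurs in 5.78% of the windows. The AP-1 site TGANTCA (6.57% of windows), the cAMP response element TGACGTCA (1.65%), the CArG box (1.16%) and the letters TGACNNNGC of the antioxidant response element (10.9%) had no match in the windows of these 3 genes. The exact letters TATAAA, in 10.7% of windows, were found once, beginning 230 bases before the second start of ATF3, which lies inside the gene. Variants of these letters, such as TATATAAG near the end of the printed IER5 bases, were not searched. The GC content of the printed bases is 70.4% for IER5, 61.8% for JUN and 48.6% for ATF3, whose printed stretch is shorter, at 177 bases.

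To ask how the genes responded to H2O2, the effects in the 4 transfection states were averaged in limma, with a mean for each of the 8 groups estimated from the 24 samples together, with Benjamini-Hochberg adjustment over all 11579 transcripts, and a transcript was called at an adjusted p under 0.05. The fit counts the 4 states of a batch as separate samples. Differences between batches in the H2O2 effect, where the states share them, are therefore not fully held in its standard errors. CYR61, MCL1 and ATF3 were higher after H2O2, IER5 was lower, and JUN was not called. With the batch as a replicate block, which accounts for the centring within batches, IER5 was not called (adjusted p = 0.0560) and the other 3 calls stood. Over all transcripts 8.9% were called higher and 7.63% lower, and the median difference was 0.0016, against 0.37 for the 5 genes. In the F-test across the 8 groups, in which 18.4% of all transcripts were called, CYR61 (adjusted p = 0.00454, or 0.0170 with the replicate block) and MCL1 (adjusted p = 0.00995, or 0.0346) were called. ATF3 (0.0883), IER5 (0.176) and JUN (0.633) missed the adjusted threshold there. Without the 3 libraries that go against their group, 3 genes were called, CYR61 (0.0121), MCL1 (0.0350) and IER5 (0.0326). Without replicate 1 or 2 the F-test called 0 of the 5 genes, and without replicate 3 it called CYR61 (0.0269). Fits without a replicate hold fewer samples, and their shares over all transcripts are not given here.

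**Figure D1:**
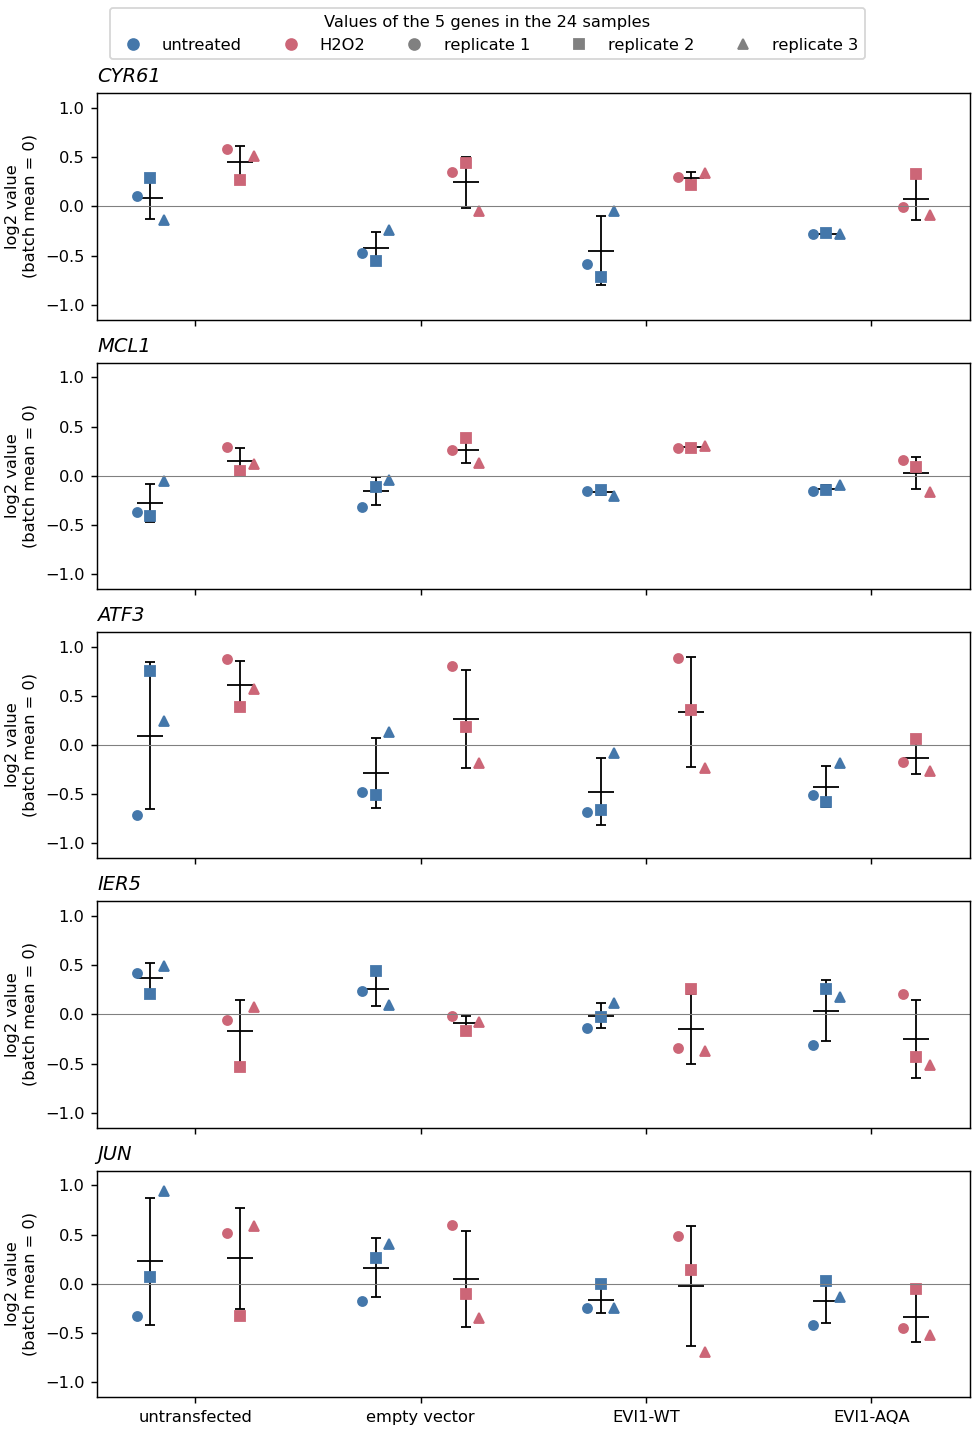
Log2 values, with the mean of each batch at 0, of the 5 genes in the 24 samples by transfection state, blue for untreated and red for H2O2, with marker shapes for the replicates and black lines for the mean and SD of 3 samples. The H2O2 samples of MCL1 lie between -0.16 and 0.39 and the untreated ones between -0.41 and -0.041, while the JUN samples overlap widely, from -0.42 to 0.94 untreated and from -0.70 to 0.60 with H2O2.

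CYR61, the integrin-binding matrix protein, had values from -0.72 to 0.29 with a median of -0.28 in the 12 untreated samples, and from -0.084 to 0.58 with a median of 0.32 in the 12 H2O2 samples. The ranges overlap, with 3 untreated samples above the lowest H2O2 sample. Compared within batches and transfection states, CYR61 was higher with H2O2 in 11 of 12 pairs, the exception being untransfected cells of batch 2 at -0.022. The averaged difference was 0.53 on the log2 scale (standard error 0.085, adjusted p = 0.000401), a fold of 1.45. It kept its call in all 9 alternative settings, with differences from 0.49 to 0.62. By state, the difference was 0.37 ± 0.35 in untransfected, 0.67 ± 0.42 in empty vector, 0.74 ± 0.30 in EVI1-WT and 0.36 ± 0.22 in EVI1-AQA cells (SD, n = 3).

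MCL1, the survival factor, lay between -0.41 and -0.041 (median -0.15) without H2O2 and between -0.16 and 0.39 (median 0.21) with it. A single H2O2 sample, EVI1-AQA replicate 3 at -0.16, lay below the highest untreated sample, and MCL1 was higher with H2O2 in 11 of 12 pairs. The averaged difference was 0.37 (standard error 0.060, adjusted p = 0.000529), a fold of 1.29. MCL1 had the tightest replicates of the 5, with a residual SD of 0.12 that places it at percentile 5.83 of all transcripts. Without replicate 1 the difference was 0.30 and missed the threshold (adjusted p = 0.0532). By state, the difference was 0.43 ± 0.24 in untransfected, 0.42 ± 0.22 in empty vector, 0.46 ± 0.040 in EVI1-WT and 0.16 ± 0.20 in EVI1-AQA cells (SD, n = 3). All 12 pairs were higher with H2O2 in 1.29% of all transcripts, and in none of the 5 genes.

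ATF3, the stress-induced AP-1 family member, rose by an amount close to that of CYR61, but less evenly. Its untreated samples ran from -0.71 to 0.75 (median -0.49) and its H2O2 samples from -0.27 to 0.88 (median 0.27), and the value of 0.75 belongs to untreated untransfected replicate 2. ATF3 was higher with H2O2 in 8 of 12 pairs. The averaged difference was 0.54 (standard error 0.16, adjusted p = 0.0241), a fold of 1.46. Without the 3 libraries that go against their group in the row labelled CACNB3 it was 0.56 and no longer called (adjusted p = 0.0573), without replicate 1 it was 0.22 (adjusted p = 0.400), and without replicate 2 it was 0.57 (adjusted p = 0.124). Without replicate 3 it was 0.84 and called (adjusted p = 0.0171).

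IER5, the HSF1-binding protein, moved the other way. Its untreated samples lay between -0.31 and 0.49 (median 0.19) and its H2O2 samples between -0.53 and 0.26 (median -0.12), and it was lower with H2O2 in 10 of 12 pairs. The averaged difference was -0.33 (standard error 0.10, adjusted p = 0.0329), a fold of 0.797, and with the replicate block the adjusted p was 0.0560. Leaving out replicate 1, 2 or 3 gave differences of -0.44, -0.27 and -0.27, none of them called (adjusted p = 0.0526, 0.160 and 0.212). In untransfected cells all 3 pairs were lower (-0.47, -0.74 and -0.42), and so were all 3 in empty vector cells (-0.26, -0.61 and -0.16). The pairs that were higher were EVI1-WT of batch 2 at 0.29 and EVI1-AQA of batch 1 at 0.52. Both hold a library that goes against its group in the row labelled CACNB3. The remaining library of that kind is in the empty vector pair of batch 2, which was lower at -0.61. Whether these libraries carry wrong labels was not tested, and leaving them out does not correct an exchange. Without those 3 libraries the IER5 difference was -0.42 (adjusted p = 0.00660).

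JUN had values from -0.42 to 0.94 without H2O2 and from -0.70 to 0.60 with it, with medians of -0.069 and -0.078. The averaged difference was -0.027 with a 95% interval from -0.36 to 0.31 (standard error 0.16, adjusted p = 0.928). JUN was higher with H2O2 in 4 of 12 pairs. Its replicates were far apart, with a residual SD of 0.44 at percentile 94.5 of all transcripts, close to that of ATF3 (0.43, percentile 94.2), while IER5 (0.26) and CYR61 (0.21) lay near the median of all transcripts (0.23).

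The mean H2O2 effects on JUN and ATF3 fell from batch 1 to batch 3. Those on MCL1 and IER5 fell in the same order by less, and that on CYR61 was also lowest in batch 3. In batch 1 JUN differed by 0.84 in untransfected, 0.77 in empty vector and 0.73 in EVI1-WT cells, and by -0.032 in the library labelled EVI1-AQA, 1 of the 3 that go against their group. In batch 3 JUN was lower with H2O2 in all 4 states, from -0.75 to -0.35. Mean differences of JUN over the 4 states were 0.58 ± 0.41 in batch 1, -0.17 ± 0.26 in batch 2 and -0.49 ± 0.18 in batch 3 (SD over 4 states). ATF3 differed by 1.19 ± 0.59, 0.49 ± 0.60 and -0.057 ± 0.27 in the same batches, and was higher in 4, 3 and 1 of 4 states. A near-zero average for JUN thus joins a batch in which 3 of 4 states were higher with one in which 0 of 4 were. The standard errors of the averaged differences of JUN and ATF3, and the interval for JUN, do not hold this spread between batches in full. Whether the H2O2 effect differs between batches was tested with batch by treatment terms in limma, a comparison added after these values were seen, in which 0.0345% of all transcripts were called. ATF3 had an adjusted p of 0.502 (0.00371 before adjustment) and JUN one of 0.616 (0.0219 before adjustment) in limma, and neither was called.

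The other genes varied less between batches. CYR61 differed by 0.61 ± 0.29, 0.63 ± 0.46 and 0.36 ± 0.22 in batches 1, 2 and 3, MCL1 by 0.50 ± 0.15, 0.41 ± 0.12 and 0.20 ± 0.24, and IER5 by -0.10 ± 0.43, -0.44 ± 0.48 and -0.44 ± 0.22 (SD over 4 states). Each gene kept the direction of its mean in all 3 batches. The batch by treatment test gave them adjusted p-values of 0.902, 0.795 and 0.888.

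**Figure D2:**
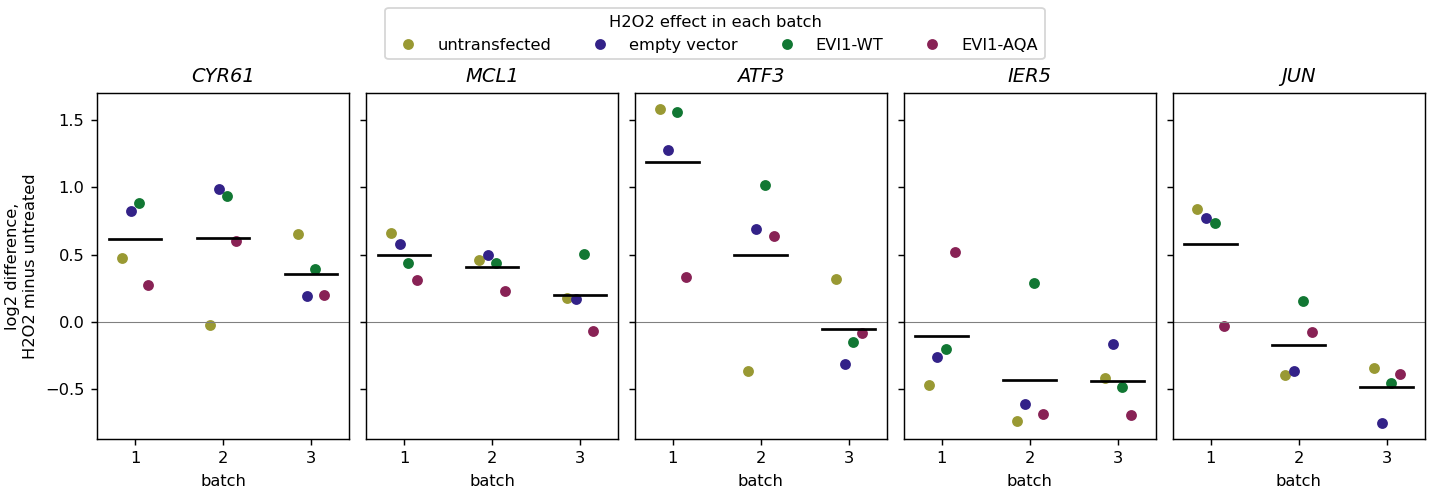
Log2 difference between the H2O2 and the untreated sample of the same batch and transfection state for each gene, with 1 point per state and a black line for the mean of the 4 states of a batch. CYR61 and MCL1 lie above 0 in 11 of 12 pairs, whereas the batch means of JUN go from 0.58 in batch 1 to -0.49 in batch 3.

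Within single transfection states, each with 3 against 3 samples, few transcripts were called, 0.389% in untransfected, 2% in empty vector, 0.475% in EVI1-WT and 2.02% in EVI1-AQA cells. Of the 5 genes only CYR61 in empty vector cells was called (adjusted p = 0.0472). That call was lost with the replicate block (adjusted p = 0.0973), without the 3 libraries (0.217) and without replicate 1 (0.402) or 2 (0.377). At an unadjusted p under 0.05 from limma, 3 of the 5 genes passed in untransfected cells, 2 in empty vector, 3 in EVI1-WT and 1 in EVI1-AQA cells, where 15.4%, 17.5%, 14.7% and 17.7% of all transcripts did. In the blocked fit 2, 2, 3 and 0 of the 5 genes passed, and the shares over all transcripts in that fit are not given here. Whether the H2O2 effect itself differed was then tested between empty vector and untransfected cells (0% of all transcripts called), EVI1-WT and empty vector (0%), EVI1-AQA and empty vector (0.406%) and EVI1-AQA and EVI1-WT (0%). None of the 5 genes was called in these 4 comparisons, and none passed an unadjusted p under 0.05, which 4.44%, 3.41%, 14.2% and 9.78% of all transcripts did. For MCL1 the effect in EVI1-AQA minus that in EVI1-WT cells was -0.30 with a 95% interval from -0.66 to 0.054, and for CYR61 it was -0.38 with an interval from -0.88 to 0.12, so differences of the size of the H2O2 effects themselves were not resolved.

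To ask what transfection did without H2O2, CYR61 is the gene to look at. Its values were 0.11, 0.29 and -0.14 in untreated untransfected replicates 1, 2 and 3, -0.47, -0.55 and -0.24 with empty vector, -0.58, -0.72 and -0.051 with EVI1-WT and -0.28, -0.27 and -0.28 with EVI1-AQA. All empty vector and EVI1-AQA samples lay below all untransfected samples, and only EVI1-WT replicate 3 reached into their range. The mean of the 3 plasmids minus untransfected cells, a comparison added after these values were seen, was -0.47 (standard error 0.14, adjusted p = 0.0310), or 0.0570 with the replicate block, at 13% of all transcripts called. The call was lost without replicate 1 (difference -0.43, adjusted p = 0.184) and without replicate 2 (-0.30, adjusted p = 0.315). It was also lost with quantile normalization (-0.48, adjusted p = 0.0572). With H2O2 the difference was -0.25 (standard error 0.14, adjusted p = 0.315), at 2.31% of transcripts called.

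ATF3 without H2O2 differed by -0.49 between transfected and untransfected cells (standard error 0.26, adjusted p = 0.214), JUN by -0.28 (0.26, 0.492), IER5 by -0.28 (0.17, 0.275) and MCL1 by 0.12 (0.099, 0.413), none of them called. The ATF3 difference moved with the replicate left out. It was -0.81 and called without replicate 1 (adjusted p = 0.0444), -0.069 without replicate 2 (adjusted p = 0.936) and -0.59 without replicate 3 (adjusted p = 0.274). With H2O2 the ATF3 difference was -0.45 (standard error 0.26, adjusted p = 0.339).

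The comparisons between single plasmids gave 0 calls among the 5 genes with limma, with the replicate block and in the two-group fit without moderation. The shares of all transcripts called were 0.147% for empty vector against untransfected cells, 0% for EVI1-WT and 0.0864% for EVI1-AQA against empty vector and 0% for EVI1-AQA against EVI1-WT, all untreated, and 0%, 0%, 0.0173% and 0.0173% for the same comparisons with H2O2. The plasmid comparisons share their reference samples. At an unadjusted p under 0.05, CYR61 was lower with empty vector than in untransfected cells (untreated, log2 difference -0.51, standard error 0.17, adjusted p = 0.191), and MCL1 was lower with EVI1-AQA than with EVI1-WT after H2O2 (-0.26, standard error 0.12, adjusted p = 0.448). In the blocked limma fit CYR61 still passed that unadjusted threshold (adjusted p = 0.319) and MCL1 no longer did (adjusted p = 0.628). The shares of all transcripts that passed it follow for the fit without the block, in the order of the comparisons above. They were 14.7%, 7.09%, 14.9% and 4.77% untreated and 11%, 4.67%, 9.15% and 10.5% with H2O2. The H2O2 values of MCL1 were 0.29, 0.29 and 0.30 with EVI1-WT and 0.16, 0.089 and -0.16 with EVI1-AQA, which do not overlap, but replicate 2 of the former and replicate 1 of the latter are among the 3 libraries that go against their group. Without those 3 libraries the MCL1 difference was -0.33 (adjusted p = 0.423).

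**Figure D3:**
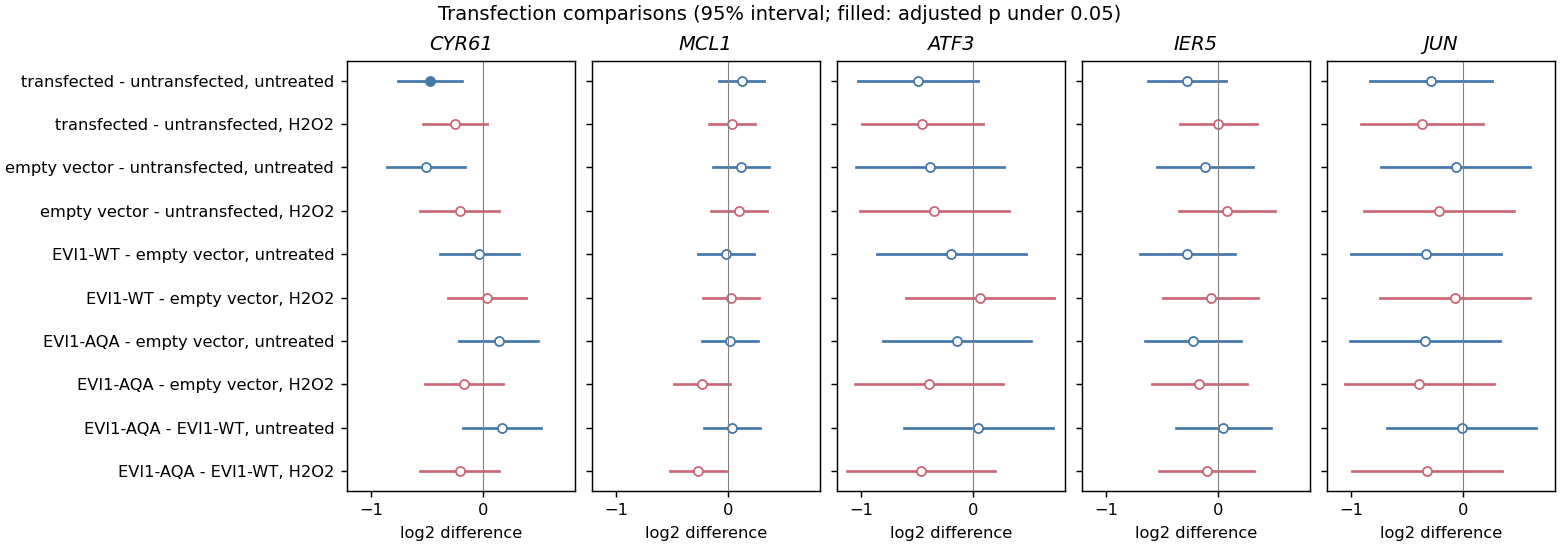
Log2 differences (points) with 95% intervals (lines) for the 5 genes in 10 transfection comparisons from the limma fit, blue for untreated and red for H2O2, filled where the adjusted p was under 0.05. The filled point is CYR61 in untreated transfected minus untransfected cells at -0.47, and the intervals of ATF3 and JUN are the widest.

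The 5 genes were then set beside other early response and stress genes of chromosome 1, a list of 40 with the members, of which 31 had a row. Genes were listed by role, and some, such as signalling and survival genes, need not be induced early. In the averaged H2O2 comparison 8 of the 31 were higher and 3 lower (35.5% called), against 16.5% of all transcripts and 17.7% of those labelled with a gene of chromosome 1, and the median of the list was 0.11. Without the 5 members, 5 of 26 were higher and 2 lower (26.9%). Among growth arrest and stress genes GADD45A, which is induced by DNA damage, was higher by 1.00 (standard error 0.23, adjusted p = 0.00617, 11 of 12 pairs), PPP1R15B, a subunit that directs a phosphatase to the translation factor eIF2α, by 0.42 (0.067, 0.000415, 12 of 12) and ERRFI1, a feedback inhibitor of the EGF receptor, by 0.45 (0.12, 0.0124, 10 of 12). TXNIP, which binds thioredoxin, differed by -0.97 and was lower (0.22, 0.00507) in 11 of 12 pairs. This role held 9 genes with a row, of which 3 were higher and 1 lower.

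Of 8 transcription factors and regulators, ATF3 and ELK4, a partner of serum response factor, were higher (ELK4 0.52, standard error 0.11, adjusted p = 0.00407), and IER5 and NFIA, of the nuclear factor I family, were lower (NFIA -0.41, standard error 0.077, adjusted p = 0.00143, 12 of 12 pairs). Of 5 signalling genes, not all of them kinases or phosphatases, 1 was called, the phosphatase DUSP12 with a difference of 0.34 (standard error 0.073, adjusted p = 0.00388). MCL1 was the 1 gene called of 6 survival and death genes, and CYR61 was the sole secreted protein with a row. Of 2 genes listed as stress chaperones 0 were called. The count of 11 called genes fell to 3 without replicate 1 and to 7 without replicate 2. Such fits hold fewer samples, and their shares over all transcripts are not given here. Whether the fall is particular to these genes was not tested.

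**Figure D4:**
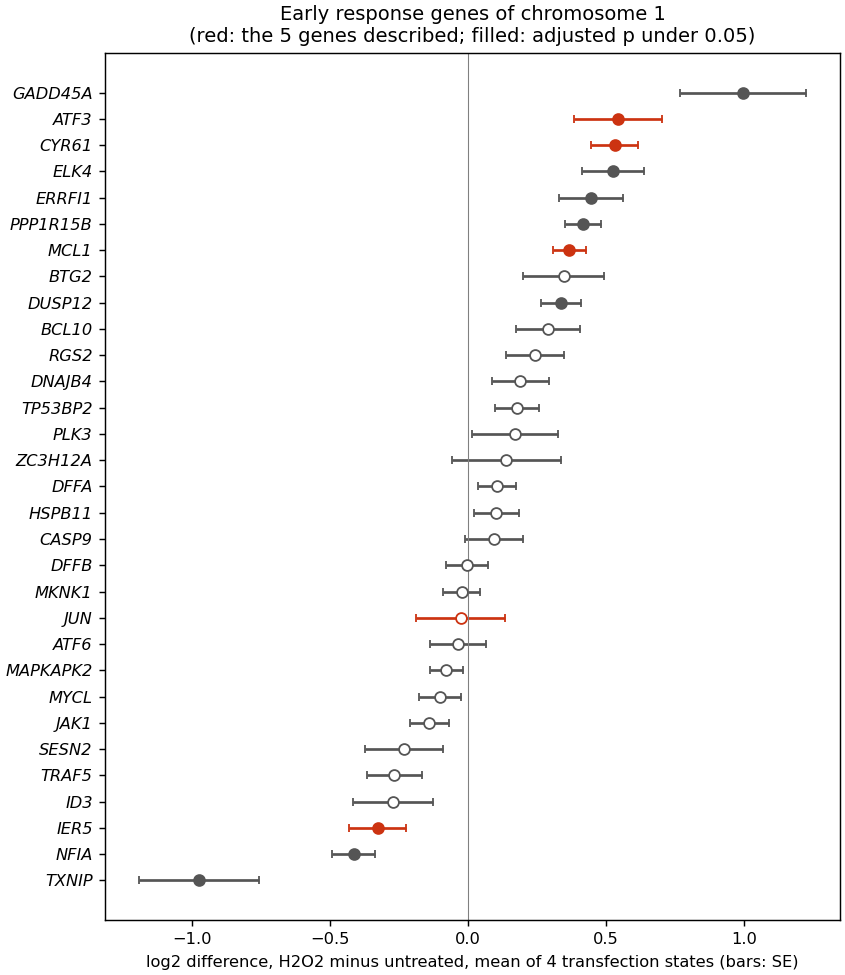
Log2 difference between H2O2 and untreated cells, averaged over 4 transfection states, with its standard error, for the 31 early response and stress genes of chromosome 1 with a row, red for the 5 genes described and filled where the adjusted p was under 0.05. ATF3 and CYR61 stand next to each other at 0.54 and 0.53 below GADD45A at 1.00, and IER5 stands near NFIA above TXNIP at -0.97.

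In the remaining comparisons few genes of the list were called. In empty vector cells PPP1R15B was higher with H2O2 by 0.58 (standard error 0.13, adjusted p = 0.0299, or 0.0748 with the replicate block) and the initiator caspase gene CASP9 by 0.87 (0.21, 0.0364, or 0.0797), beside CYR61. Without the 3 libraries that go against their group, 1 of which is an empty vector sample with H2O2, the differences were 0.52 (adjusted p = 0.164) and 0.70 (adjusted p = 0.194). Averaged over the 4 states CASP9 differed by 0.095 (adjusted p = 0.575) and was higher in 4 of 12 pairs. Neither PPP1R15B nor CASP9 kept its call in empty vector cells when any 1 replicate was left out. In untreated cells SESN2, a stress-induced inhibitor of the growth kinase mTORC1, was lower in transfected than in untransfected cells (log2 difference -0.85, standard error 0.23, adjusted p = 0.0211, or 0.0394 with the block). This comparison, added after the data were seen, called 13% of all transcripts. SESN2 missed the threshold without replicate 2 (0.223) or 3 (0.0567) and with quantile normalization (0.0829). With H2O2, CASP9 was higher in transfected cells by 0.80 (0.17, 0.0220, or 0.0531) and the kinase gene MKNK1 by 0.41 (0.11, 0.0496, or 0.104). Without the 3 libraries CASP9 was at 0.74 (adjusted p = 0.0497) and MKNK1 at 0.40 (adjusted p = 0.0960), and both missed the threshold without replicate 2 (0.379 and 0.212) or 3 (0.137 and 0.247), MKNK1 also without replicate 1 (0.259).

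For each gene the 3 transcripts of chromosome 1 most like it over the 24 samples were found by Pearson correlation, as a description. These samples share batches, and any gene that responds to H2O2 shares that part of its pattern. MCL1 was most like PPP1R15B (r = 0.86), RABGGTB (0.80) and WDR26 (0.79), all 3 of them called higher after H2O2. ATF3 was most like USP1 (0.82), which encodes a deubiquitinating enzyme of DNA repair, CYR61 (0.77) and GADD45A (0.76), and CYR61 was most like ILF2 (0.81), ATF3 (0.77) and KTI12 (0.75). IER5 was most like RGS16 (0.79), a regulator of G protein signaling that was called lower after H2O2 (-0.56, adjusted p = 0.000758), TXNIP (0.79) and ARV1 (0.78). Among the transcripts closest to JUN were ZCCHC11 (0.72), which encodes a terminal uridylyltransferase, and PAQR6 (0.69), neither of them called after H2O2, and none of the other 4 genes was among the 3 closest to JUN.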

How the data were processed

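Libraries of polyadenylated RNA were made by the authors with a 3′ end kit (QuantSeq, forward) and read as single ends. They were mapped against an Ensembl annotation of GRCh38 (the aligner is not given in the sources used here) and filtered by an FPKM minimum in Qlucore. The deposited table holds log2 values after the authors' normalization, with a mean of 0 in each batch (largest departure 4.5e-06). The sources used here describe a centring for illustration but none within batches. The centring within batches removes absolute levels and uses 2 of the 16 residual degrees of freedom of the fit without a block. No filter on low values was possible. Fits used limma 3.58.1 in R 4.3.3, two-sided, with group means and no replicate block, and beside it with the batch of the labels as a block, because the labels state that a number marks a shared batch. The block is printed where it changes a call. Fits were tested on simulated data with independent noise and the same H2O2 effect in every batch. A spread of that effect between batches was therefore not covered. Gene types and positions came from GENCODE v44, in which 10892 of the 11579 identifiers were found, and promoters from RefSeq (GRCh38.p14), equal to hg38. Other steps used Python 3.11.15, pandas 2.3.3 and matplotlib 3.10.9. Members, lists and comparisons were chosen with earlier results of these data known. The named genes were the members, called genes of the list and the 3 closest transcripts by correlation, of which 1 is not reported here. The alternatives were the block, sample medians set to 0, quantile normalization, a two-group fit without moderation, only rows of chromosomes 1 and X, leaving out each replicate, and leaving out 3 libraries. Transfected against untransfected cells and batch by H2O2 were added after the data were seen.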

Additional observations from a re-analysis of the deposited data

How the results depend on the processing

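The 9 alternatives gave 306 values of 34 differences of single genes, of which 274 kept their direction and their side of the threshold, 17 lost a call, 5 gained one and 10 changed sign, none of the latter called. The number of the 5 genes called for averaged H2O2, 4 in all, was 1 to 3 when 1 replicate was left out, and that of the F-test, 2 in all, was 0 to 1, and 3 without the 3 libraries that go against their group. The number of listed genes called was 3 to 11 when 1 replicate was left out. Shares over all transcripts are not given for these settings, so whether the falls are particular to these genes was not tested. In empty vector cells the 1 call became 0 with the replicate block, 0 in the two-group fit without moderation, 0 without the 3 libraries, 2 with quantile normalization and 0 to 1 without 1 replicate. In EVI1-WT cells the count of 0 became 2 with quantile normalization and 1 with only rows of chromosomes 1 and X. For transfected against untransfected cells the 1 call became 0 with the replicate block, 0 with quantile normalization and 0 to 1 without 1 replicate. The averaged JUN difference was 0.0086 with quantile normalization and -0.33 to 0.20 without 1 replicate. Over the same settings the H2O2 difference of JUN was -0.37 to 0.25 in untransfected, -0.56 to 0.20 in empty vector and -0.15 to 0.44 in EVI1-WT cells, that of ATF3 in untransfected cells -0.023 to 0.95, that of IER5 in EVI1-WT cells -0.35 to 0.041 and the transfection difference of JUN -0.45 to 0.037. The causes were not tested. Depth is unknown, and 3 samples per group limit the precision.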
